A study of Mus musculus with 20 samples.

Results

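Fibrinogen is the soluble plasma protein that thrombin cuts into fibrin, the mesh of a blood clot, and plasmin is the protease that dissolves that mesh. The 9 genes described here lie on both sides of that balance. Fga, Fgb and Fgg encode the α, β and γ chains of fibrinogen, which are made mainly by hepatocytes and, in smaller amounts, by epithelia under inflammation. F3 encodes tissue factor, the cell-surface starter of coagulation, and Thbd encodes thrombomodulin, the endothelial receptor that turns thrombin toward activation of protein C. Plat and Plau encode the tissue-type and urokinase-type plasminogen activators, Plaur the receptor that holds urokinase at the cell surface, and Serpine2 protease nexin 1, a secreted inhibitor of thrombin and of both activators. The genes were taken by symbol, all 9 were present among the 47069 genes of the count table, and all 9 were among the 17622 genes that passed the filter on low counts.

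Total kidney RNA was sequenced from 20 mice of a male cohort killed at 15 weeks of age. The WT group (n = 5) carried intact Col4a3 and received no treatment. The other groups carried Col4a3-/-, a knockout of a collagen chain of the glomerular basement membrane that serves as a mouse model of Alport syndrome, and every mouse was of strain 129SJ x C57Bl/6J. From 5 weeks of age the Veh group (n = 6) received PBS by weekly injection under the skin, the anti-miR-21 group (n = 6) was given 50 mg/kg of lademirsen, an oligonucleotide that blocks miR-21, weekly by the same route, and the ACEi group (n = 3) received ramipril, an inhibitor of angiotensin-converting enzyme, with PBS injections. The labels give ramipril as 11 mg/L of drinking water and the deposited library table as 4 mg/kg. The deletion is present in every cell from conception, the RNA is that of whole tissue, and the ACEi group is small, so differences within it are known less well. Because the tissue was bulk kidney, more cells of a type and more RNA per cell cannot be told apart in any of these values.

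Levels are given as TMM-scaled CPM, a gene's count relative to the scaled total of its library, computed from the deposited estimated counts, whose totals ran from 28474301 to 29479629 per library. Col4a3 itself was at 194 to 238 CPM in WT and at 27.9 to 74.9 CPM in the 15 Col4a3-/- mice, so the targeted gene was lower in every library labelled Col4a3-/- than in any WT library. The proximal tubule gene Slc34a1 was present throughout, at 788 CPM or more in every mouse. The extraction protocol of the labels names adipose tissue, while the tissue label is kidney. Summed adipocyte genes were at 351 to 410 CPM in Veh A1, A4 and A9 and at 224 CPM in anti-miR-21 A12, against at most 56 CPM in every other mouse. The 6 hepatocyte genes together reached 107 and 143 CPM in WT A17 and A18 and 88 CPM in Veh A20, against at most 43.7 CPM in every other mouse. WT A18 was also low in endothelial genes, with 90.3 CPM for 5 genes summed against 162 to 234 CPM in the other WT mice.

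The fibrinogen genes are neighbours. In GRCm38, Fgg (ENSMUSG00000033860) lies at chr3:83007724-83015049 and Fga (ENSMUSG00000028001) at chr3:83026076-83033627, both on the plus strand, and Fgb (ENSMUSG00000033831) lies at chr3:83040141-83049863 on the minus strand, so that the whole cluster spans 42.1 kb. A long noncoding RNA gene, Gm30097, overlaps Fgg on the opposite strand, and the strand setting of the counting is not given in the sources used here. The 250 bases before each RefSeq start of transcription are shown because these chain genes moved together within groups, as described further on. They were taken from RefSeq (GRCm38.p6), at chr3:83025903-83026152 for Fga, chr3:83049864-83050113 (minus strand) for Fgb and chr3:83007474-83007723 for Fgg. The RefSeq start of Fga lies inside the gene span given above, so its window runs over the first bases of that span, while the other windows end next to their genes. Capitals mark CTGGGA, the core of the element through which interleukin 6 acts on acute phase genes. It was searched on both strands and was chosen after the sequences had been seen.
Fga: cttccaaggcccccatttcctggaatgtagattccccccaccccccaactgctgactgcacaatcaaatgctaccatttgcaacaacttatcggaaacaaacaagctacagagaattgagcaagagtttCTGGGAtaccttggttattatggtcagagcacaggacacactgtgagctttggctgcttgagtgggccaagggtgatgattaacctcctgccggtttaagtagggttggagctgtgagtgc
Fgb: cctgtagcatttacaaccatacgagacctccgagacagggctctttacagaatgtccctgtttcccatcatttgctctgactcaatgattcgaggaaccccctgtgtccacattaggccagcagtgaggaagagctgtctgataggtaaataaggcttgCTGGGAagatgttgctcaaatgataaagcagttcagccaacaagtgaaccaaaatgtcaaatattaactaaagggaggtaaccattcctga
Fgg: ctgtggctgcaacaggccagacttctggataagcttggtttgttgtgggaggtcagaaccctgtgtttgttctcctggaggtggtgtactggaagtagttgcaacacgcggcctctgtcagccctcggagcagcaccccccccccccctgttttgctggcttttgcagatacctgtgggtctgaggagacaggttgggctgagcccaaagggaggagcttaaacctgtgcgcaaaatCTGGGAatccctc
All 3 promoters held CTGGGA in the direction of the gene, with its first base at -121 from the RefSeq start in Fga, -91 in Fgb and -13 in Fgg. Across 32851 mouse promoters of the same length, 27.0% held it. It was not found in the same window of Plaur, Serpine2 and F3. Those of Plat, Plau and Thbd were not analysed here.

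The remaining genes lie apart from each other, F3 at chr3:121723537-121735048, Plat at chr8:22757727-22782844, Plau at chr14:20836660-20843385 and Plaur at chr7:24462484-24475968, all on the plus strand, with Serpine2 at chr1:79794197-79861180 and Thbd at chr2:148404466-148408188 on the minus strand. Because 1 treatment was directed at miR-21, the 3′ untranslated regions (GENCODE M21) were searched for matches to its seed, bases 2 to 8 of the mature miRNA, shown in capitals.
miR-21a-5p (chr11:86584120-86584141, minus strand): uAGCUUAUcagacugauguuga
None of the 9 genes held the full match to bases 2 to 8, which 7.19% of 21022 genes held. Thbd alone held a match to bases 2 to 7 followed by A, a form found in 6.65% of genes, with the match in capitals.
Thbd, 3′ untranslated region (chr2:148404655-148404679, minus strand): ttgttttaagTAAGCTAggaatgag
A match of these letters is a description of the transcript and does not show that the site is used.

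Between Veh and WT kidneys, 8 of the 9 genes were higher in Veh and none was lower. The rises ranged from 2.07-fold for Fga to 8.91-fold for both Fgg and Serpine2, and Plau was the gene that did not pass the test. Adjusted p-values here and throughout come from edgeR's quasi-likelihood test over all 17622 genes, with calls at adjusted p under 0.05. Of all genes tested, 73.0% were called in this comparison, 39.0% higher and 34.0% lower, so a call by itself does not set these genes apart. For 7 of the 9 genes no Veh mouse overlapped WT, as for 54.9% of all genes. The median log2 fold change of the 9 genes was 1.77, against 0.07 over all genes. Scaling by library totals alone moves the median of all genes to 0.65 and the share of calls that are higher from 53.4% to 81.2%, and all 9 genes are then called higher in Veh, Plau included.

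**Figure D1:**
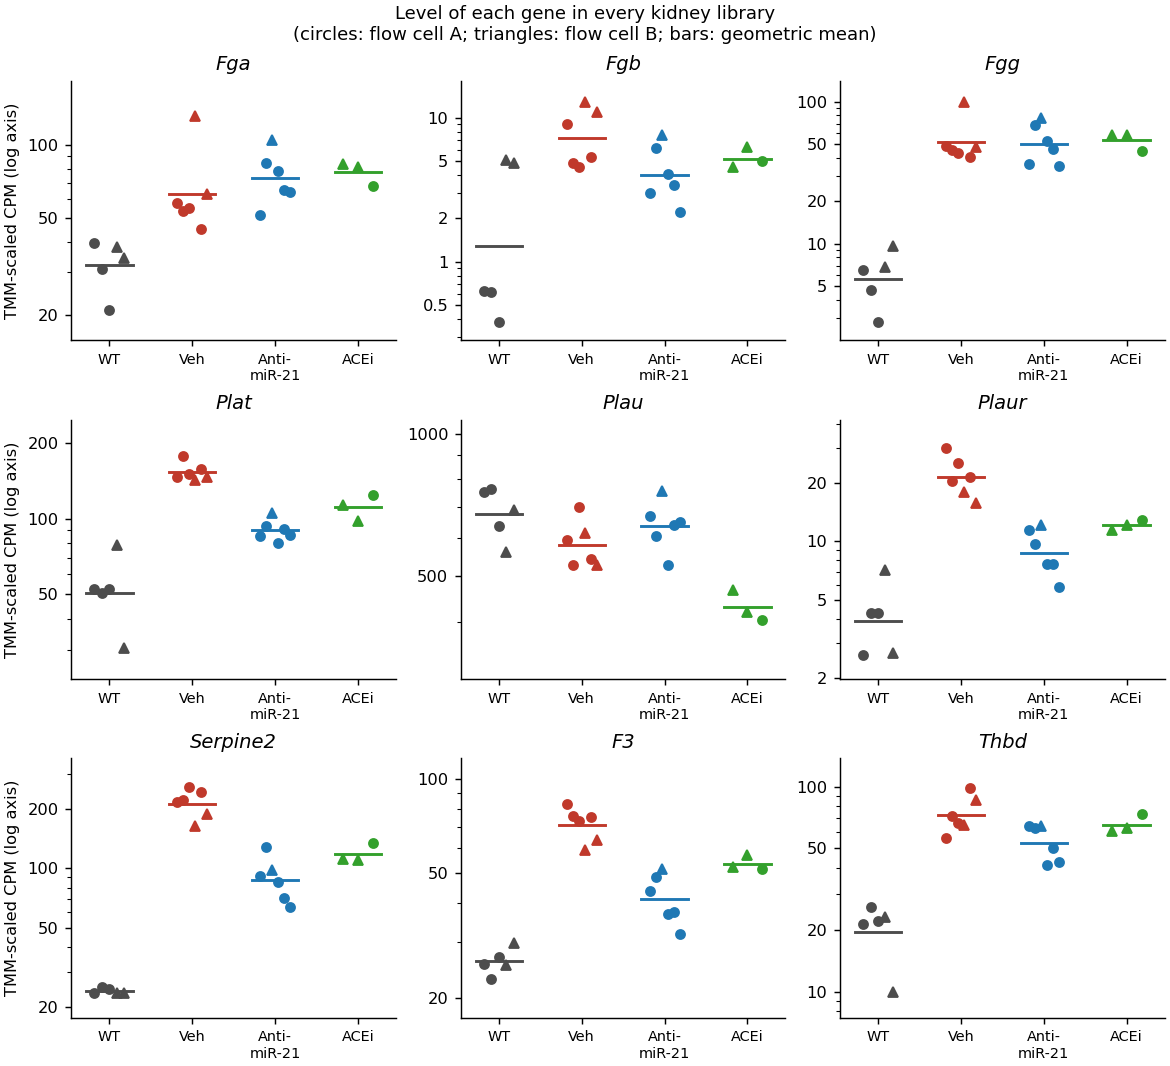
Level of each of the 9 genes in 20 kidney libraries, as TMM-scaled CPM on a log axis, by group. Each point is 1 mouse, circles and triangles mark the sequencing flow cells, and bars are geometric means. For Fga, Fgg, Plat, Plaur, Serpine2, F3 and Thbd every Veh mouse lies above every WT mouse, and WT Fgb falls into 3 mice at 0.38 to 0.624 CPM and 2 mice at 4.82 and 5.11 CPM.

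Over all mice, Fgg rose most among the fibrinogen chains. That order turned within flow cell A, where the log2 fold change was 3.47 for Fgb and 3.28 for Fgg, and without WT A17, WT A18 and Veh A20, where it was 3.76 and 3.58. The level of Fgg was 6.55, 4.72, 2.79, 6.83 and 9.69 CPM in WT A3, A6, A14, A17 and A18, and ran from 40.8 to 100 CPM in Veh with a median of 46.8 CPM. Every Veh mouse was above every WT mouse, and the log2 fold change was 3.16 ± 0.31 (SE, adjusted p = 1.09e-08). Fga, the chain with the highest level in WT, was at 39.5, 31, 20.9, 38.1 and 34.3 CPM in the same WT mice and from 45.3 to 132 CPM in Veh, with a median of 56.5 CPM. The groups again did not overlap, but the step was smaller, at 1.05 ± 0.24 on the log2 scale (adjusted p = 0.000575). Veh A16 was the highest Veh mouse for all 3 chains, with 132 CPM of Fga, 12.9 CPM of Fgb and 100 CPM of Fgg.

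Fgb had the lowest mean CPM of the 9 genes in every group, and its WT mice split. It was at 0.624, 0.615 and 0.38 CPM in WT A3, A6 and A14 and at 5.11 and 4.82 CPM in WT A17 and A18, which overlap the Veh range of 4.54 to 12.9 CPM (median 7.19 CPM). These rest on 9 to 125 estimated counts per WT library, so the low values carry wide counting error. Over all mice the log2 fold change was 1.77 ± 0.53 (adjusted p = 0.00564). WT A17 and A18 were the mice with 107 and 143 CPM of summed hepatocyte genes, against 23.3 to 34.3 CPM in the other WT mice. Alb, the plasma albumin gene of the liver, was at 72.2 and 96.5 CPM in them and at 7.1 to 11 CPM in WT A3, A6 and A14. Without WT A17, WT A18 and Veh A20, an alternative chosen after seeing the data, the log2 fold change of Fgb was 3.76 (adjusted p = 3.44e-06). Both A17 and A18 were also run on flow cell B. Within flow cell A the value was 3.47 (adjusted p = 4.66e-06) and within flow cell B it was 1.25 (adjusted p = 0.00263), and the parts of flow cell and of hepatocyte transcripts were not tested separately. For Fga and Fgg the same leave-out gave 1.18 (adjusted p = 0.00319) and 3.58 (adjusted p = 3.01e-07).

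**Figure D2:**
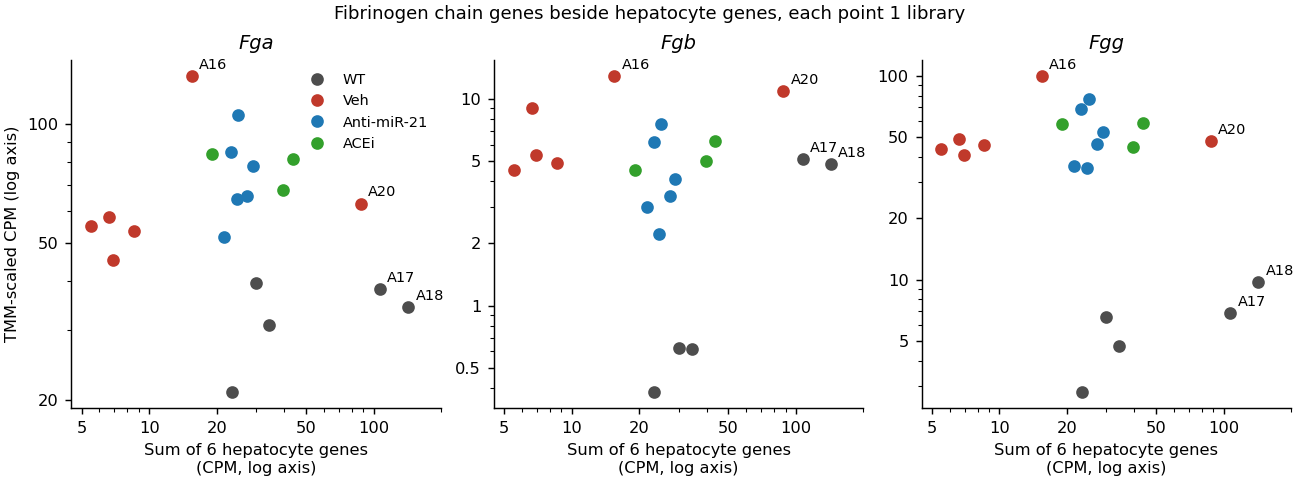
CPM of Fga, Fgb and Fgg (log axes) against the summed CPM of 6 hepatocyte genes (Alb, Ahsg, Apoa2, Apoc3, Serpina3k and Cps1) in each library. The 4 Veh mice at 5.52 to 8.57 CPM of hepatocyte genes hold 40.8 CPM of Fgg or more, while WT A17 and A18, at 107 and 143 CPM, hold 6.83 and 9.69 CPM.

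None of the 6 hepatocyte genes was called higher in Veh. Of them, 2 were lower (Apoa2 and Apoc3, which encode apolipoproteins) and 4 did not pass the test. Their sum had a median of 34.3 CPM in WT and of 7.75 CPM in Veh and rests mainly on 2 genes, Apoc3 with medians of 19.4 and 6.01 CPM and Alb with medians of 11 and 1.06 CPM. Ahsg, with medians of 0.338 and 0.237 CPM, and Cps1, with 0.0891 and 0.0834 CPM, were among those that did not pass. In Veh A1, A4, A9 and A19, where the sum was 5.52 to 8.57 CPM, Fga was at 45.3 CPM or more.

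None of the fibrinogen chains passed the test against Veh with either treatment. Fgg was at 35.2 to 76.9 CPM in anti-miR-21 mice (median 49.7 CPM) and at 58, 58.6 and 44.8 CPM in ACEi A11, A13 and A23. Its log2 fold change against Veh was -0.05 with anti-miR-21 (adjusted p = 0.88, 95% interval -0.54 to 0.44) and -0.02 with ACEi (adjusted p = 0.97, 95% interval -0.62 to 0.58), so changes of a size inside those intervals could not be seen. Against WT, Fgg remained higher by 3.11 in anti-miR-21 mice (adjusted p = 1.18e-07) and by 3.14 in ACEi mice (adjusted p = 2.53e-07). Fga was at 51.6 to 105 CPM (median 71.9 CPM) in anti-miR-21 mice and at 83.7, 81.6 and 67.8 CPM in ACEi mice. The log2 fold change against Veh was 0.14 (adjusted p = 0.594, 95% interval -0.29 to 0.58) and 0.20 (adjusted p = 0.588, 95% interval -0.33 to 0.73). With library totals alone these became -0.17 and -0.05, and within flow cell B the ACEi value was -0.24. That Fga result rests in part on Veh A16: without it, Fga was called higher than Veh by 0.47 with anti-miR-21 (adjusted p = 0.018) and by 0.53 with ACEi (adjusted p = 0.0328).

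As a group mean, Fgb lay between WT and Veh with each treatment, while the treated mice overlapped both groups. It was at 2.21 to 7.56 CPM (median 3.74 CPM) with anti-miR-21 and at 4.53, 6.23 and 5.01 CPM with ACEi. The log2 fold change against Veh was -0.84 (adjusted p = 0.137) and -0.59 (adjusted p = 0.449), neither past the threshold. Of 34 alternatives that gave a value, 3 made a call with anti-miR-21 and 1 with ACEi, all lower than Veh. Within flow cell B the ACEi value was -1.14. In anti-miR-21 mice the summed hepatocyte genes were at 21.6 to 29 CPM, of which Apoc3 made up 15.8 to 20.7 CPM and Alb 5.15 to 7.49 CPM. The members went in different directions against Veh: Apoc3 was higher than its 4.23 to 11.8 CPM in Veh (adjusted p = 5.38e-06), while Ahsg (adjusted p = 0.0194), Serpina3k (adjusted p = 0.0301) and Cps1 (adjusted p = 0.0335) were called lower, with at most 0.148 and 0.187 CPM of Ahsg and Serpina3k and with Cps1 at 0 in all 6 mice. In Veh, Ahsg, Serpina3k and Cps1 had medians of 0.237, 0.0555 and 0.0834 CPM. Veh A20 was the highest for each, at 6.49, 5.39 and 1.18 CPM, so their Veh means rest mainly on 1 mouse. Against WT, Fgb differed by 0.93 (adjusted p = 0.167) and 1.18 (adjusted p = 0.122), and without A17, A18 and A20 these became 3.03 (adjusted p = 0.000157) and 3.28 (adjusted p = 0.00011).

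The proportion of the chains to each other also changed. Per length, as the log2 ratio of deposited FPKM (fragments scaled to gene length and library size) within a library, Fgg was below Fga in every WT mouse, at -1.67 ± 0.42 (SD, n = 5), and above it in every Veh mouse, at 0.58 ± 0.10 (SD, n = 6). It stood at 0.33 ± 0.20 in the 6 anti-miR-21 mice and at 0.33 ± 0.05 in the 3 ACEi mice. Within a library these ratios do not depend on the scaling. The Fgb to Fga ratio was the most uneven in WT, with a log2 SD of 1.64, and stood at -2.33 ± 0.43 in Veh, -3.37 ± 0.40 in anti-miR-21 and -3.10 ± 0.27 in ACEi mice. Fgb was below both other chains in every mouse, and 5.03-fold below Fga in Veh as a geometric mean.

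**Figure D3:**
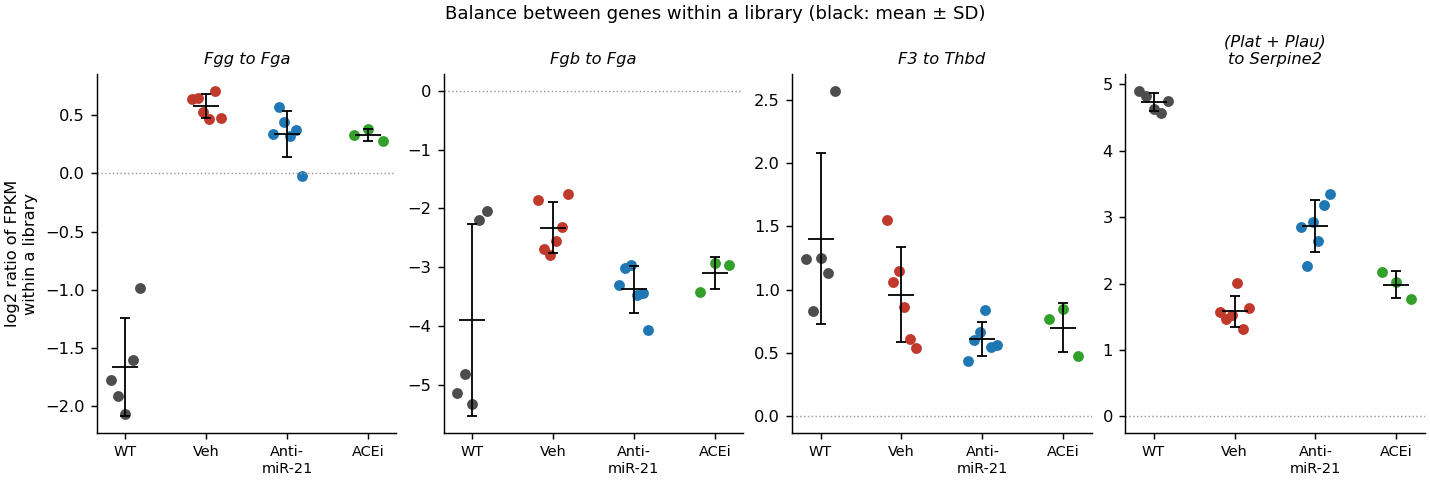
Log2 ratio of FPKM between genes of the same library, by group. Points are mice and black marks are mean ± SD. Fgg to Fga moves from -1.67 in WT to 0.58 in Veh, and the activators Plat plus Plau to the inhibitor Serpine2 from 4.73 to 1.58.

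Serpine2 had the most even WT level and the clearest separation. It was at 23.5, 25.1, 24.5, 23.6 and 23.5 CPM in WT A3, A6, A14, A17 and A18, and at 163 CPM in Veh A16, 188 CPM in A20 and 216 to 256 CPM in the other 4 Veh mice, a log2 fold change of 3.16 ± 0.16 (adjusted p = 2.25e-12). Treated mice lay between, at 63.5 to 128 CPM with anti-miR-21 (median 88.2 CPM) and at 112, 110 and 134 CPM with ACEi. Every treated mouse lay above the highest WT mouse and below the lowest Veh mouse. The log2 fold change against Veh was -1.26 ± 0.13 with anti-miR-21 (adjusted p = 2.13e-07) and -0.85 ± 0.17 with ACEi (adjusted p = 0.000543). Relative to WT, Serpine2 was still 3.72-fold and 4.93-fold higher.

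Plat showed the same order of groups. It was at 52.6, 50.6, 52.4, 78.4 and 30.7 CPM in the 5 WT mice and at 142 to 177 CPM in Veh (median 149 CPM), higher by 1.53 ± 0.15 (adjusted p = 1.44e-08). WT A18, the mouse low in endothelial genes, had the lowest value. With anti-miR-21 it was at 80.2 to 105 CPM (median 88.9 CPM), lower than Veh by 0.76 on the log2 scale (log2 fold change -0.76 ± 0.14, adjusted p = 9.8e-05). ACEi mice were at 113, 97.7 and 124 CPM, all below the lowest Veh mouse, with -0.46 ± 0.17 (adjusted p = 0.0406). That ACEi call was lost on leaving out any of the 3 ACEi mice, any of the 6 Veh mice or WT A3, with adjusted p from 0.05 to 0.189, and with flow cell as a term (adjusted p = 0.0542).

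Plau was by far the most abundant of the 9 and did not follow the others. WT mice A3, A6, A14, A17 and A18 had 752, 765, 637, 561 and 690 CPM, and Veh mice 526 to 698 CPM with a median of 570 CPM, so the groups overlapped. The log2 fold change was -0.22 ± 0.10 (adjusted p = 0.0525), and its direction depended on the scaling: it was 0.36 (adjusted p = 0.00464) with library totals alone, where the median gene moved by 0.65, and 0.37 on log2(FPKM + 1) (adjusted p = 0.00527). Anti-miR-21 mice were at 528 to 757 CPM (median 646 CPM), with 0.14 against Veh (adjusted p = 0.227, 95% interval -0.05 to 0.32). ACEi mice were at 467, 419 and 403 CPM, below every mouse of the other groups, and lower than Veh by a log2 fold change of -0.44 ± 0.12 (adjusted p = 0.00596) and than WT by -0.67 ± 0.12 (adjusted p = 0.000207).

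Plau was also the gene among the 9 for which the treatments were called different. Anti-miR-21 was higher than ACEi by 0.58 ± 0.12 on the log2 scale (adjusted p = 0.0311), in a comparison where 0.584% of all genes were called. The call was lost without A10, A15 or A22 of the anti-miR-21 group or without any of the 3 ACEi mice, with adjusted p from 0.055 to 0.22. It was also lost with library totals alone (adjusted p = 0.0848), while the log2 difference ran from 0.46 to 0.77 over 35 alternatives, of which 23 made the call.

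Plaur, the receptor for that urokinase, was low in WT at 2.63, 4.31, 4.31, 7.15 and 2.68 CPM, and rose 5.16-fold to 15.7 to 30.1 CPM in Veh (median 21 CPM, adjusted p = 2.4e-08). It fell with anti-miR-21 to 5.85 to 12.1 CPM (median 8.66 CPM), a log2 fold change of -1.27 ± 0.21 (adjusted p = 3.93e-05), the lowest of which overlap WT. ACEi mice were at 11.5, 12.2 and 12.9 CPM, a log2 fold change of -0.84 ± 0.26 (adjusted p = 0.0163). Without ACEi A11 or A13 the ACEi call was lost, with adjusted p of 0.0654 and 0.0598.

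F3 and Thbd, the starter of coagulation and the receptor that restrains it, were both higher in Veh. F3 was at 25.7, 23, 26.9, 25.5 and 29.8 CPM in WT and at 59.4 to 82.9 CPM in Veh (median 74.6 CPM), a log2 fold change of 1.46 ± 0.11 (adjusted p = 4.76e-10). It was lower than Veh with anti-miR-21, at 32 to 51.5 CPM (median 40.6 CPM, log2 fold change -0.78 ± 0.10, adjusted p = 2.59e-06). With ACEi it was at 52.2, 57.1 and 51.6 CPM (log2 fold change -0.42 ± 0.13, adjusted p = 0.0133), a call lost without ACEi A11 (adjusted p = 0.0578) or A23 (adjusted p = 0.0603). The authors' annotation marks the F3 entry of the FPKM table as confounded, without saying with what.

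Thbd was at 21.4, 25.8, 22.2 and 23 CPM in WT A3, A6, A14 and A17 and at 9.94 CPM in A18, and at 56.4 to 98 CPM in Veh (median 69.1 CPM). The log2 fold change was 1.85 ± 0.20 (adjusted p = 4.51e-08). Without WT A17, WT A18 and Veh A20 it was 1.63 (adjusted p = 6.09e-07). With anti-miR-21 Thbd was at 41.5 to 64.3 CPM (median 56.7 CPM), overlapping Veh, with -0.45 ± 0.18 (adjusted p = 0.037). Leaving out anti-miR-21 A12, A15 or A22 or Veh A4, A19 or A20 ended that call, with adjusted p from 0.0617 to 0.127. ACEi mice stood at 60.5, 62.6 and 73.2 CPM, within the Veh range, with -0.18 (adjusted p = 0.546, 95% interval -0.61 to 0.25). A difference between F3 and Thbd in their response was not tested. As a log2 ratio of FPKM within a library, F3 to Thbd was 0.96 ± 0.37 in Veh, 0.61 ± 0.13 in anti-miR-21 and 0.70 ± 0.20 in ACEi mice, ranges that overlap, and F3 was above Thbd in every mouse. Among the 5 endothelial genes, Pecam1 and Cdh5 were higher in Veh by 0.50 (adjusted p = 0.0123) and 0.66 (adjusted p = 0.000906) on the log2 scale and the other 3 were not called. None of the 5 was called with either treatment.

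In counts, 5 of the 9 genes were lower with anti-miR-21 than in Veh (Plat, Plaur, Serpine2, F3 and Thbd) and none was higher, where 59.2% of all genes were called, 30.5% lower and 28.8% higher. With library totals alone the share of calls that are higher moves from 48.6% to 20% here and from 52.4% to 20.5% for ACEi. For 4 of the 9 (Plat, Plaur, Serpine2 and F3) the groups did not overlap, as for 36.4% of all genes. With ACEi 5 of the 9 were lower than Veh (Plat, Plau, Plaur, Serpine2 and F3) and none was higher, where 40.1% of all genes were called, 19.1% lower and 21.0% higher. In those same 5 genes the ACEi and Veh groups did not overlap, as for 38.6% of all genes. The number called with ACEi fell to 2 without ACEi A11 and to 3 without A13 or without A23. Both comparisons share the Veh mice. Against WT, 7 of the 9 remained higher with anti-miR-21 and 7 with ACEi, with Plau lower in the latter. In these comparisons 43.7% and 47.7% of all genes were called in either direction, and 54.6% and 52.7% of those calls were higher.

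For the 8 genes that rose in Veh, each treated mouse was given a position on the log2 CPM scale, where 0% is the mean of Veh and 100% the mean of WT. With anti-miR-21 the mean position was 54.7% ± 18.1 (SD, n = 6) for F3, 52.7% ± 16.4 for Plaur, 48% ± 8.49 for Plat and 40.9% ± 11.4 for Serpine2. With ACEi these genes stood at 28.4% ± 5.46 (SD, n = 3), 33.2% ± 3.57, 29% ± 11 and 26.9% ± 5.01. The direct contrast of the treatments was not called for any of these 4, with log2 differences of -0.36 (adjusted p = 0.187) for F3, -0.43 (adjusted p = 0.456) for Plaur, -0.31 (adjusted p = 0.418) for Plat and -0.41 (adjusted p = 0.253) for Serpine2. The fibrinogen genes Fgg and Fga were at 1.09% ± 14.6 and -20.9% ± 36.3 with anti-miR-21 and at -1.47% ± 6.88 and -29.4% ± 16.9 with ACEi, means close to the Veh mean or on its far side from WT. Fgb was at 35.1% ± 27.3 and 20% ± 9.7, and Thbd at 23.5% ± 15.6 and 8.26% ± 7.7. For Fgb the 100% mark is a mean over split WT mice, a level that no WT mouse had. WT A3, A6 and A14 were at 0.38 to 0.624 CPM, and WT A17 and A18, high in hepatocyte genes, at 4.82 to 5.11 CPM.

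**Figure D4:**
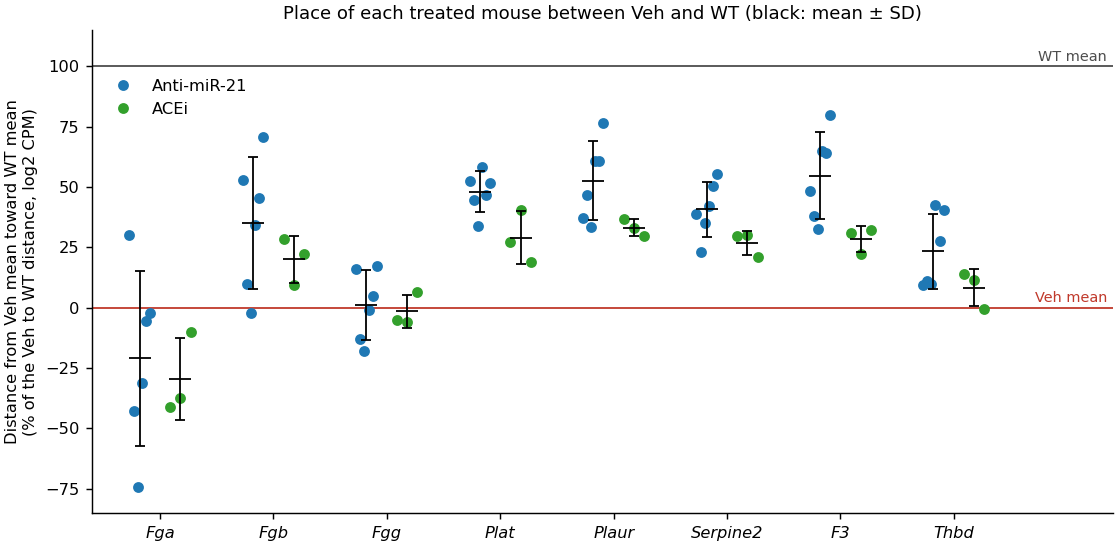
Position of the 9 treated mice, with Veh at 0% and WT at 100% as group means, for the 8 genes higher in Veh, on the log2 CPM scale. Points are mice and black marks are mean ± SD. All 9 treated mice lie above 0% for Plat, Plaur, Serpine2 and F3, while Fgg lies from -18% to 17.5%.

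By level per length, Plau was first in every group, at 240 FPKM in WT, 310 FPKM in Veh, 270 FPKM with anti-miR-21 and 189 FPKM with ACEi as group means, and no other gene's range reached it. In WT, Plat followed at 17.4 ± 5.95 FPKM (SD, n = 5), with a range that overlapped F3 at 11.5 ± 1.02 FPKM. Serpine2 at 9.65 ± 0.556 FPKM and Fga at 9.57 ± 2.08 FPKM could not be ordered, nor could Thbd, Fgg, Plaur and Fgb, at 4.55, 3.2, 2.46 and 1.15 FPKM, where each overlapped the next. In Veh the order became Serpine2 at 130 ± 24.7 FPKM (n = 6), Plat at 75.7 ± 7.81 FPKM, F3 at 47.8 ± 7.12 FPKM, Fgg at 43.2 ± 15.2 FPKM, Fga at 29.3 ± 12 FPKM, Thbd at 24.8 ± 5.78 FPKM and Plaur at 18.7 ± 4.73 FPKM. Fgb, at 5.95 ± 2.47 FPKM, was last without overlap. Neighbours from F3 down to Plaur overlapped in range.

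Within groups, the fibrinogen genes varied together from mouse to mouse. With each group's mean removed, log2 CPM of Fga and Fgg correlated over 20 libraries with r = 0.89, Fgb and Fgg with r = 0.77 and Fga and Fgb with r = 0.57. These are descriptions that rest in part on Veh A16, which was high for all 3. The values of Fgb also rest on its WT mice, at 4.82 and 5.11 CPM in A18 and A17 and at 0.38 to 0.624 CPM in A3, A6 and A14. A17 and A18 were also the WT mice high in hepatocyte genes and the ones on flow cell B. Outside the fibrinogen genes, Serpine2 and F3 had r = 0.72 and Plat and Thbd r = 0.69. The value for Plat and Thbd rests in part on WT A18, the lowest WT mouse for both, at 30.7 and 9.94 CPM. The part of that mouse in the closest matches of Plat and Thbd, given below, was not tested. Searched over all genes whose mean log2 CPM was 1 or more, the most alike to Fga was Fgg and to Fgg was Fga, followed for Fgg by Fgb and by Serpina10 (r = 0.73), which encodes an inhibitor of coagulation factor X. The genes most alike to the others were Comtd1 for Fgb (r = 0.86), Hist2h2be for Plat (r = 0.93), Ube2j1 for Plau (r = 0.77), Vopp1 for Plaur (r = 0.90), Fchsd1 for Serpine2 (r = 0.91), Pdlim7 for F3 (r = 0.89) and Gucy1b1, a subunit of soluble guanylate cyclase, for Thbd (r = 0.95).

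Of 10 genes for plasminogen, its inhibitors and its cell-surface partners, 9 were tested, and 4 were higher and 4 lower in Veh than in WT, where 39.0% of all genes were higher and 34.0% lower. These counts are close to the shares over all genes, and the median log2 fold change of the 9 was -0.58. Anxa2, a plasminogen-binding protein of the cell surface, rose from 40.3 to 91.4 CPM in WT to 272 to 403 CPM in Veh, by 2.48 on the log2 scale (adjusted p = 5.18e-10). It was lower than Veh by a log2 fold change of -1.10 with anti-miR-21 (adjusted p = 1.77e-05) and of -0.81 with ACEi (adjusted p = 0.00562). Serpinf2, α2-antiplasmin, went the other way, from 679 to 848 CPM in WT to 34.6 to 188 CPM in Veh (log2 fold change -3.22, adjusted p = 1.15e-08), and was higher than Veh by 2.54 (adjusted p = 6.06e-07) and 2.17 (adjusted p = 5.42e-05) with the treatments. Hrg, a plasma protein that binds plasminogen and fibrinogen, was at 3.65 to 9.89 CPM in WT and at 0 to 1.24 CPM in Veh, where A20 was the highest. Lrp1, the receptor that clears activator and inhibitor complexes, rose by 2.35 in Veh (adjusted p = 5.4e-10).

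Plg, plasminogen itself, was at 0.0891 to 2.58 CPM in WT and at 0.0281 to 1.44 CPM in Veh, with the highest levels in A17 and A20, the mice high in hepatocyte genes. Its call between Veh and WT (log2 fold change -1.85, adjusted p = 0.0401) was also made in 19 of 33 alternatives that gave a value. Per length, activators Plat plus Plau exceeded the inhibitor Serpine2 by a log2 ratio of 4.73 ± 0.14 (SD, n = 5) in WT, 1.58 ± 0.23 (n = 6) in Veh, 2.86 ± 0.39 (n = 6) with anti-miR-21 and 1.98 ± 0.20 (n = 3) with ACEi. The WT and anti-miR-21 ranges did not overlap that of Veh, and the ACEi range did.

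Of 14 coagulation factors, 13 were present in the table and 11 tested, with 4 higher and 4 lower in Veh, again close to the 39.0% and 34.0% over all genes, and with a median log2 fold change of 0.59. F13b, a subunit of the fibrin-crosslinking factor, fell from 71.3 to 117 CPM in WT to 5.74 to 33.2 CPM in Veh (log2 fold change -2.55, adjusted p = 3.48e-07), and F10 rose by 2.24 (adjusted p = 2.17e-06) from a low level of 0.178 to 1.35 CPM. F7, the ligand of tissue factor, was at 0.041 to 0.336 CPM in WT and 0.494 to 1.4 CPM in Veh. It passed the filter on low counts only through the Col4a3-/- groups. Its call as higher, and so the count of 4 higher, was partly set by that filter. F2, which encodes prothrombin, was at most 2.49 CPM in any mouse and was highest in WT A17 and Veh A20 within their groups. Its fall in Veh (log2 fold change -1.84, adjusted p = 0.0466) was called in 11 of 33 alternatives that gave a value.

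Of 9 inhibitors of coagulation, 8 were tested, and 4 were higher and 2 lower in Veh, beside 39.0% and 34.0% of all genes. Serpina10 rose by 3.53 (adjusted p = 9.09e-11), Pros1, the cofactor of activated protein C, by 2.31 (adjusted p = 2.69e-10), Procr, the receptor that presents protein C to thrombomodulin, by 1.80 (adjusted p = 6.47e-08) and Tfpi, the inhibitor of tissue factor, by 1.10 (adjusted p = 5.42e-07). Proc, protein C itself, fell from 230 to 310 CPM in WT to 34.8 to 90.9 CPM in Veh (log2 fold change -2.31, adjusted p = 5.4e-10), and was higher than Veh with anti-miR-21 by 1.67 (adjusted p = 1.56e-07) and with ACEi by 1.44 (adjusted p = 2.4e-05).

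All 4 protease-activated receptors were called higher in Veh, as were 39.0% of all genes, among them F2r, the thrombin receptor, by 2.36 (adjusted p = 5.11e-10) and F2rl1 by 1.71 (adjusted p = 2.13e-10). F2rl2 was at 0 to 0.134 CPM in WT and 0.168 to 0.771 CPM in Veh. It passed the filter on low counts only through the Col4a3-/- groups, so its call was partly set by that filter. With anti-miR-21, F2r and F2rl1 were lower than Veh by log2 fold changes of -0.66 (adjusted p = 0.0016) and -1.18 (adjusted p = 9.02e-08). ACEi lowered F2rl1 (-0.84, adjusted p = 0.000142), and F2r did not pass at -0.13 (adjusted p = 0.625). All 5 fibrinogen receptors rose in Veh and all 5 were lower with anti-miR-21, while 4 were lower with ACEi, where 39.0%, 30.5% and 19.1% of all genes were called in those directions. Itgam and Itgb2, the subunits of the leukocyte integrin that binds fibrinogen, rose by 4.44 (adjusted p = 3.13e-12) and 3.69 (adjusted p = 2.98e-12), and Icam1 by 2.71 (adjusted p = 2.36e-12). Summed macrophage genes moved with them, at 125 to 138 CPM in WT, 575 to 695 CPM in Veh, 248 to 356 CPM with anti-miR-21 and 319 to 380 CPM with ACEi, and all 5 macrophage markers were called higher in Veh and lower with each treatment. Summed fibroblast genes were at 111 to 258 CPM in WT, 1504 to 1812 CPM in Veh, 429 to 822 CPM with anti-miR-21 and 805 to 915 CPM with ACEi. Summed neutrophil genes were at 0.718 to 4.19 CPM in WT and 14.7 to 21.9 CPM in Veh, of which Csf3r alone made up 0.507 to 2.87 CPM and 13.7 to 20.7 CPM. S100a8 and S100a9 did not pass the test, and Ly6g and Mpo were too low to be tested. Summed platelet genes were at 9.62 to 15 CPM in WT and 8.18 to 10.8 CPM in Veh, a sum mostly of Itga2b, which was lower in Veh (log2 fold change -1.19, adjusted p = 4.13e-08), while Pf4 was higher by 2.92 (adjusted p = 2.31e-08). Tubule injury genes were at 23.2 to 35.4 CPM in WT, 836 to 1352 CPM in Veh, 268 to 555 CPM with anti-miR-21 and 536 to 624 CPM with ACEi. Their part in the results for Plaur, Serpine2 and the receptors was not tested.

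Interleukin 6 and its relatives are the signals that raise fibrinogen in liver. All 10 interleukin 6 family genes tested were higher in Veh, 8 of them were lower with anti-miR-21 and 6 with ACEi, beside 39.0%, 30.5% and 19.1% of all genes. Socs3, a feedback target of the pathway, rose by 4.96 (adjusted p = 2.33e-12) and Lif, a ligand, by 5.36 (adjusted p = 4.16e-12). With anti-miR-21 Socs3 was lower than Veh by a log2 fold change of -1.41 (adjusted p = 2.59e-06) and with ACEi of -1.20 (adjusted p = 0.00055). Il6 was at 0 to 0.0409 CPM in WT and 0.525 to 1.63 CPM in Veh. Il6 and Osm, the latter at 0 to 0.123 CPM in WT, passed the filter on low counts only through the Col4a3-/- groups. Their calls as higher, and so the count of 10, were partly set by that filter. Of 14 acute phase genes, 12 were tested, 7 were higher in Veh and none lower, 9 were lower with anti-miR-21 and 5 with ACEi, beside the same shares of all genes. Among those higher in Veh, Saa3, at 0 to 0.127 CPM in WT, also passed the filter only through the Col4a3-/- groups. Hp and Itih4 spread widely in Veh, at 6.66 to 189 CPM and 3.19 to 27.4 CPM. They were highest in A1 and A4, mice high in adipocyte genes. Their calls as higher in Veh were also made in 34 of 35 and 33 of 34 alternatives. Hpx, called lower with anti-miR-21, was at 5.81 CPM in Veh A20, against a Veh median of 1.24 CPM. Lcn2, which encodes a siderophore-binding protein of injured tubules, rose by 6.95 (adjusted p = 1.43e-11), Serpina3n by 5.37 (adjusted p = 3.11e-11) and complement C3 by 5.15 (adjusted p = 2.5e-12). Lcn2 and Serpina3n were lower than Veh with both treatments, with log2 fold changes of -2.58 (adjusted p = 4.7e-07) and -2.04 (adjusted p = 1.29e-06) with anti-miR-21 and of -2.27 (adjusted p = 0.000134) and -1.52 (adjusted p = 0.000997) with ACEi. For C3 the log2 fold change was -0.75 with anti-miR-21 (adjusted p = 0.00331) and -0.62 with ACEi (adjusted p = 0.0556). A difference between these genes and the fibrinogen genes was not tested.

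Of 4 regulators of hepatocyte gene expression, 3 were tested, and 1 passed the test between Veh and WT. Hnf4a, a transcription factor of liver genes, was at 728 to 935 CPM in WT and at 182 to 307 CPM in Veh, with a log2 fold change of -1.75 (adjusted p = 3.27e-10). It was higher than Veh by 1.35 with anti-miR-21 (adjusted p = 7.24e-08) and by 1.22 with ACEi (adjusted p = 1.37e-05). Foxa1, at 7.41 CPM or less in every mouse, was lower than Veh by log2 fold changes of -3.11 with anti-miR-21 (adjusted p = 0.00297) and -3.74 with ACEi (adjusted p = 0.0144). Cebpa was lower by -0.40 with ACEi (adjusted p = 0.0388). Hnf4a is also made by proximal tubule cells, whose 5 markers fell in Veh as a sum from at least 11688 CPM in WT to at most 3629 CPM.

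**Figure D5:**
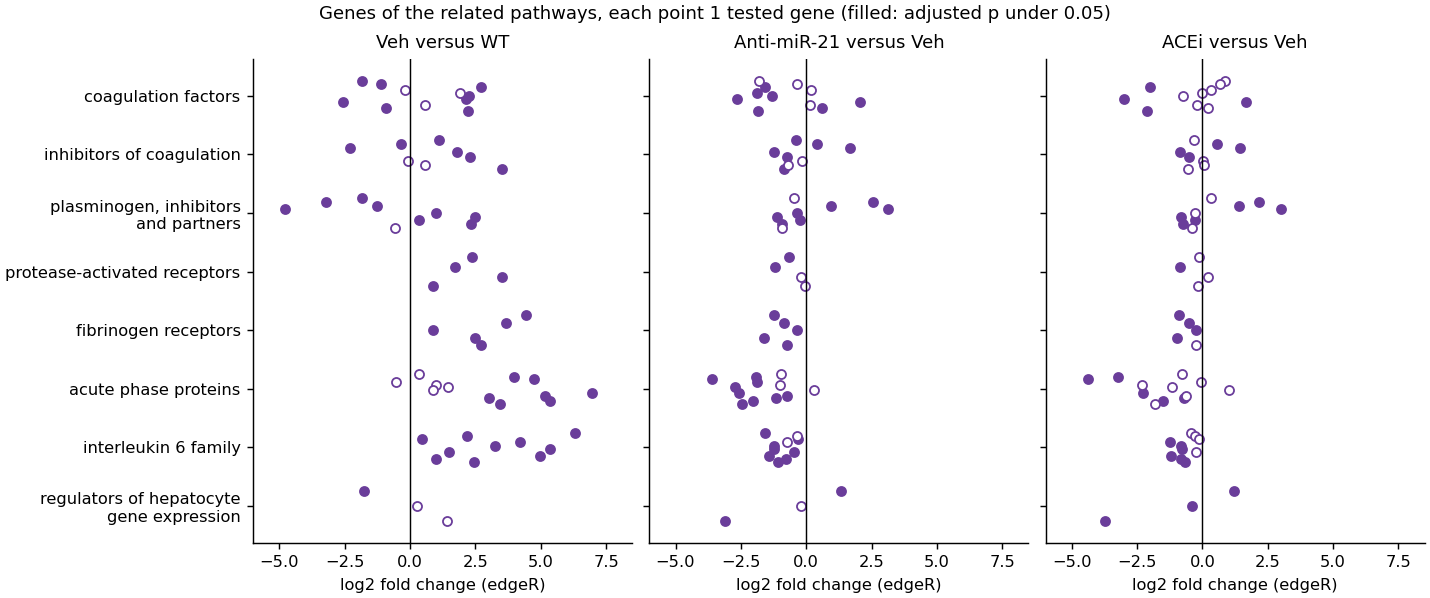
Log2 fold change (edgeR) of each tested gene of 8 related lists in 3 comparisons, with filled points for adjusted p under 0.05. Every interleukin 6 family gene, protease-activated receptor and fibrinogen receptor lies to the right of 0 in Veh versus WT, and plasminogen partners lie on both sides, with Anxa2 at 2.48 and Hrg at -4.78. Il6, Osm, F2rl2, Saa3 and F7 passed the filter on low counts only through the Col4a3-/- groups. The 2 treatment panels share the Veh mice.

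Flow cell split every group, A holding 13 libraries and B 7. In Veh versus WT all 8 genes called over both flow cells were also called within flow cell A (3 WT and 4 Veh mice) and within flow cell B (2 and 2), with log2 fold changes from 0.81 for Fga to 3.47 for Fgb in A and from 1.15 for F3 to 3.16 for Fgg in B. Anti-miR-21 has 1 mouse on flow cell B and ACEi 1 on flow cell A, so each treatment has a lone mouse on a flow cell, assumed in the fit to vary like the other groups. There, Serpine2 differed from Veh with anti-miR-21 by -1.41 in A (adjusted p = 7.57e-06) and -0.83 in B (adjusted p = 0.0423), and with ACEi by -0.79 (adjusted p = 0.0704) and -0.66 (adjusted p = 0.0268). The other anti-miR-21 calls were made in A and not in B. Plaur was at -1.52 (adjusted p = 1.93e-05) in A and -0.47 (adjusted p = 0.562) in B, F3 at -0.94 (adjusted p = 6.53e-06) and -0.25 (adjusted p = 0.313), Plat at -0.84 (adjusted p = 6.03e-07) and -0.45 (adjusted p = 0.582), and Thbd at -0.47 (adjusted p = 0.0274) and -0.24 (adjusted p = 0.755). With ACEi, Plat, Plau and Plaur were called within neither flow cell, and F3 in A (-0.57, adjusted p = 0.0498) but not in B (-0.17, adjusted p = 0.377).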

How the data were processed

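Total RNA of 20 mouse kidneys was sequenced by the authors as paired-end reads and mapped to GRCm38 with Ensembl release 83 gene models in OmicSoft Studio. The authors deposited estimated counts per gene, of which 29.1% of the positive values were not whole, and they were rounded here to whole counts. They also deposited FPKM values from a separate table, in which 3 libraries with no matching sample were not used. Totals of 28474301 to 29479629 counts per library set the precision of low genes such as Fgb. Genes were kept by edgeR's filterByExpr (minimum count 10, minimum total 15), scaled by TMM and tested by edgeR 4.0.16 (R 4.3.3) quasi-likelihood fits over all 4 groups, with Benjamini-Hochberg adjustment over 17622 genes and a threshold of 0.05. The fit was tested on simulated data. CPM values carry no prior count. Places and correlations use log2 CPM with a prior count of 2. Intervals are 95% intervals of the fitted log2 fold change.

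The 9 genes and the lists were chosen with earlier results of these data known. Named with values were all 9 genes, for each list up to 3 called genes with the largest log2 fold change between Veh and WT, their direct partners (Plg, F2, F2r, Procr, Tfpi and Lrp1) and, for each of the 9, the most correlated genes whose mean log2 CPM was 1 or more. A few genes of the lists are not reported here and were left out of the counts. The tissue marker genes named, and Foxa1, Cebpa, Osm, Saa3, Hp, Itih4 and Hpx, were chosen after their values were seen. Alternatives were DESeq2 1.42.0, RLE, upper-quartile and library-total scaling, a looser and a stricter filter on low counts, flow cell as a term, flow cell A alone, fits of only the groups compared, limma 3.58.1 on log2(FPKM + 1) and log2(FPKM + 0.1), and leaving out each library. A further 4 were chosen after seeing the data: flow cell B alone and 3 sets of libraries left out for hepatocyte or adipocyte transcripts. Replicate names differ between groups and pair no mice. The labels do not say how the mice of a group are related, so p-values measure the spread between these libraries.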

Additional observations from a re-analysis of the deposited data

Results flagged for a closer look

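Fga was at 132 CPM in Veh A16, far from the other 5 Veh mice at 45.3 to 62.8 CPM, and Fgg was at 100 CPM in the same mouse, against 40.8 to 48.9 CPM in the others. Summed hepatocyte genes were at 15.5 CPM in A16, and Fga is the gene whose treatment calls change without it, as given above. Thbd was at 9.94 CPM in WT A18, against 21.4 to 25.8 CPM in the other 4 WT mice, and the endothelial gene Pecam1 was at 20.4 CPM there, the lowest of the WT group. In all, 27 groups of mice were examined for a library far from the rest and 3 were found, where chance gives about 5% of groups.

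Plau differed between the treatments, higher with anti-miR-21 than with ACEi by 0.58 on the log2 scale (edgeR adjusted p = 0.0311). In TMM-scaled CPM every anti-miR-21 mouse was above every ACEi mouse. That separation depended on the scaling, since in FPKM and in estimated counts anti-miR-21 A12 was below ACEi A11. F3 also did not overlap between the treatments in TMM-scaled CPM, with lower levels in anti-miR-21 mice, and was not called.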

How the results depend on the processing

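Over 35 alternatives, 1794 of 1884 single values of the 9 genes stayed on their side of the threshold (43 of these changed sign with no call in either). Of the rest, 57 lost the call, 30 gained it with the same sign and 3 gained it with the opposite sign. Those 3 were all of Plau between Veh and WT, which was not called in the main fit (log2 fold change -0.22). It was at 0.36 with library totals alone and 0.37 with either FPKM pseudocount, and these scalings also move the median gene. Of the 9 genes, the number called between anti-miR-21 and Veh fell from 5 to 1 in flow cell B alone, which holds 1 anti-miR-21 mouse. Between ACEi and Veh it fell from 5 to 1 in flow cell A alone, which holds 1 ACEi mouse, and to 2 in flow cell B alone, without A1, A4, A9 and A12, and without A13, A17, A18, A20 and A23. Between anti-miR-21 and ACEi it fell from 1 to 0 with library totals alone, in flow cell A alone, in flow cell B alone, with either FPKM pseudocount, and without A13, A17, A18, A20 and A23. The genes counted for ACEi in flow cell B alone included Fgb, which was not among the 5 called over both flow cells. The cause of these losses was not tested. Leaving out each library in turn gave 8 to 9 genes for Veh versus WT, 4 to 6 for anti-miR-21 versus Veh, 2 to 5 for ACEi versus Veh, 0 to 1 between the treatments, 7 to 8 for anti-miR-21 versus WT and 8 to 9 for ACEi versus WT. Plau passed in Veh versus WT without Veh A9, WT A14, WT A17, or anti-miR-21 A10 or A12. Fgb passed against WT without WT A17 for anti-miR-21, and without A17 or A18 for ACEi. Of 328 places between Veh and WT, 314 moved by less than the spread between mice. Depth limits Fgb most, with 9 estimated counts in its lowest library.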
